A study of Mus musculus with 33 samples.

Results

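MHC class II genes encode the machinery with which antigen-presenting cells display peptides to CD4+ T cells, and they were followed here in the hypothalamus of female mice before and after ovariectomy (OVX), the surgical removal of the ovaries. The 8 genes were chosen by name from the gene symbols of a bulk RNA-seq table: Cd74, H2-Aa, H2-Ab1, H2-Eb1, H2-DMa, H2-DMb1, Ciita and Ctss. All 8 were found, each once, among 41565 named entries. The 33 libraries came from the posterior hypothalamus (PH) and the preoptic area (POA) of WT C57BL/6 females bred in-house. In the PH there were 4 intact libraries (called sham in their titles), 6 from mice 14 days after bilateral OVX and 6 from mice 4 months after it, and in the POA there were 5, 6 and 6. The intact mice were killed in diestrus and had not been ovariectomized. No intact group matched the age of the 4-month mice, so time since surgery and age cannot be told apart in comparisons with that group. One 14-day POA library carries only its time in the genotype label, and its group was taken from its title. The labels give 2 batches, and each group holds 2 or 3 libraries of each. They do not say whether each library is a separate mouse, nor whether PH and POA libraries of the same number come from the same mouse, so P values measure the spread between these libraries.

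In the classical pathway, the α and β chains of a class II molecule assemble in the endoplasmic reticulum with the invariant chain (Cd74), which blocks the peptide groove and steers the complex to endosomes. There cathepsin S (Ctss) degrades the invariant chain, and the H2-DM heterodimer (H2-DMa and H2-DMb1) exchanges its remnant for antigenic peptides. H2-Aa and H2-Ab1 encode the α and β chains of I-A, and H2-Eb1 encodes the β chain of I-E, whose α chain is not expressed in C57BL/6 mice. Ciita is the coactivator on which transcription of the class II genes depends. In the healthy brain, resting microglia carry little class II, while macrophages at the meninges, vessels and choroid plexus, and the few dendritic cells found there, carry more. Ctss is abundant in microglia.

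Of the 8 genes, 5 lie in 1 stretch of 197 kb on chromosome 17 (GRCm39, the build of the study's transcriptome). These are H2-DMa (34338515 to 34358958, plus strand), H2-DMb1 (34372046 to 34379204, plus), H2-Ab1 (34476663 to 34488393, plus), H2-Aa (34493404 to 34506798, minus) and H2-Eb1 (34504236 to 34535648, plus). Ciita lies on chromosome 16 (10297923 to 10347694, plus) and Ctss on chromosome 3 (95433963 to 95463717, plus). In GENCODE M39, the gene models of H2-Aa and H2-Eb1 overlap on opposite strands, and H2-DMa and Ciita overlap Brd2 and Dexi on the opposite strand. The study names an earlier GENCODE release, in which these overlaps were not checked. The library kit marks strand, but the strand setting of the quantification is not given in the sources used here, so reads in those overlaps could have been counted for the partner. H2-DMb2, a close paralog of H2-DMb1, could likewise share reads with it.

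The promoters of class II genes share a short module read by RFX, CREB and NF-Y, to which Ciita is recruited. The 170 bases before the annotated start are shown for 3 class II genes and for Ctss, because the values below set these genes apart. Sequences are from RefSeq (GRCm38.p6), written 5′ to 3′ on the strand of the gene, with matches to searched motifs in capitals. The motifs were ATTGG (the NF-Y core), CTGATTGG (a longer Y box), AGNNACNGA (part of an X box) and TGACGTCA (the cAMP response element bound by CREB), each on both strands.
H2-Aa (chr17:34287824-34287993, minus strand): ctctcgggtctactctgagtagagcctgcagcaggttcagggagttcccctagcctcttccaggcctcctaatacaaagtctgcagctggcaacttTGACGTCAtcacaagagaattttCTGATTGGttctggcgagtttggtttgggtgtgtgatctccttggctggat
H2-Eb1 (chr17:34305697-34305866, plus strand): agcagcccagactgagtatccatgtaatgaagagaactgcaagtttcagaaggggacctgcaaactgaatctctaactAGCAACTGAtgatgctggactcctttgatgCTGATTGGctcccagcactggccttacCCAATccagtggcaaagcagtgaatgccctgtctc
H2-DMb1 (chr17:34153021-34153190, plus strand): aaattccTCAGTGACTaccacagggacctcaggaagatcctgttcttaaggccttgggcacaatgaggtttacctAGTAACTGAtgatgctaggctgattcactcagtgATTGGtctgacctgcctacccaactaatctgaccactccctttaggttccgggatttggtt
Ctss (chr3:95526616-95526785, plus strand): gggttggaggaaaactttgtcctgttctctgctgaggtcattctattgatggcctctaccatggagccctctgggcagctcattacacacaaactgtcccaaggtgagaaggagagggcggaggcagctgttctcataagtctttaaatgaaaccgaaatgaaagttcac
CTGATTGG begins 51 bases upstream of the start in H2-Aa and 62 bases upstream in H2-Eb1. The shorter ATTGG lies within both and begins 61 bases upstream in H2-DMb1, and H2-Eb1 holds a second copy on the other strand 35 bases upstream. AGNNACNGA begins 92 bases upstream in H2-Eb1 and 95 bases upstream in H2-DMb1, where a second copy lies on the other strand 163 bases upstream. TGACGTCA begins 74 bases upstream in H2-Aa. None of these letters is in the window of Ctss. Over the 32851 promoter windows of the table, which run from 250 bases before to 50 after the start, 37.4% hold ATTGG, 4.1% CTGATTGG, 17.7% AGNNACNGA and 1.79% TGACGTCA. H2-DMa has 2 annotated starts, and only the window of the downstream one holds a match (ATTGG, 198 bases upstream). A match is a description of letters, not a bound site. The table has no entry for H2-Ab1, Cd74 or Ciita.

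Every value below is the study's deposited expression value, a normalized linear quantity without a known read depth, in which genes with little or no signal sit near 22.1 in place of 0. The values of a library summed to between 44534053 and 72945400, with a median of 50198650. PH 14-day replicate 5 had the highest sum and stood apart from the other PH libraries in the covariate SV1 (0.785, against -0.311 to 0.195). The values are not corrected for gene length, so levels are compared between groups and not between genes. Tissue identity was checked with marker lists. All 8 neuron, all 8 astrocyte, all 6 oligodendrocyte and all 15 microglia markers had medians above 44.2, which is 2 times the low-signal level. Among cells that could carry class II, 9 of 10 border macrophage markers passed that level, and Folr2 did not. Itgax, Cd209a, Batf3 and Ccr7 (dendritic cells), Cd79b (B cells), Cd3e, Cd3g, Cd8a and Cd5 (T cells) and Ly6g, Chil3, Plac8, S100a8 and S100a9 (monocytes and neutrophils) had medians under it. These are bulk libraries, so fewer cells of a type and less RNA per cell cannot be told apart.

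No MHC class II gene passed an adjusted P of 0.05 in any comparison. Differences were fitted on the log2 scale with limma over the 3 groups of a region with SV1 as covariate. Benjamini-Hochberg adjustment covered 21984 genes for the PH and 21357 for the POA. All 8 genes passed the filter on low values in both regions. Of the 8, 0 were called at 14 days against intact in the PH (limma; 0% of all genes tested were called), 0 at 4 months (0.0318%) and 0 between 4 months and 14 days (0.0091%). In the POA, 0 of 8 were called at 14 days (limma; 0.00468% of all genes), 0 at 4 months (0.0936%) and 0 between 4 months and 14 days (0.0281%). At an unadjusted P of 0.05, the gene past the threshold was Ctss in each case where there was one. In the PH this was so at 14 days (1 of 8, against 3.03% of all genes), at 4 months (1 of 8, against 6.06%) and between 4 months and 14 days (1 of 8, against 4.09%). In the POA it was so at 14 days (1 of 8, against 6.13%) and at 4 months (1 of 8, against 8.5%), while between 4 months and 14 days the count was 0 of 8 (against 5.11%). The comparisons of one region share their libraries, so the calls on Ctss are not separate pieces of evidence.

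**Figure D1:**
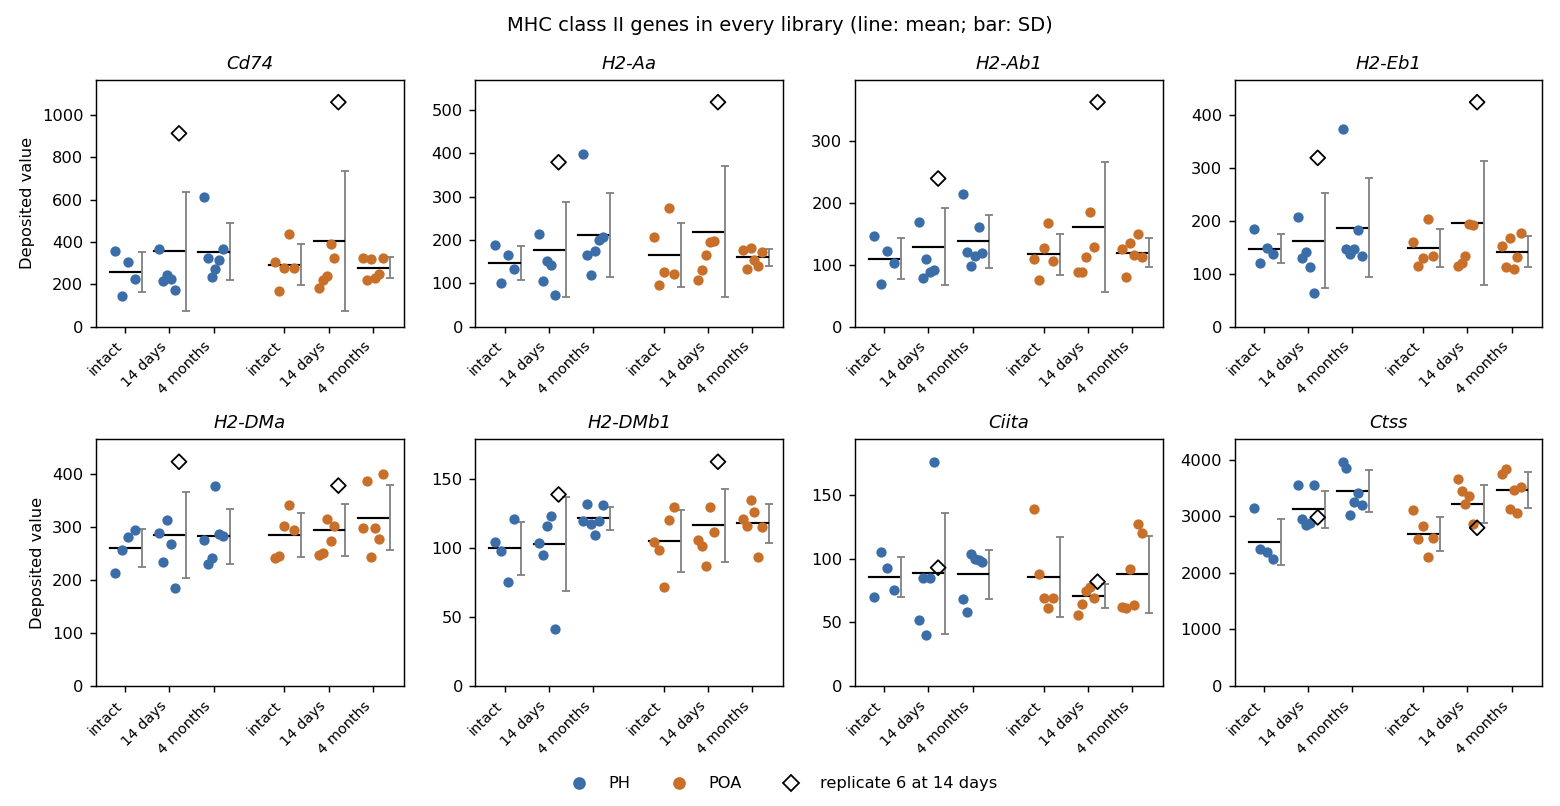
Deposited expression value (vertical axis, linear, starting at 0) of each MHC class II gene in every library, grouped by region (PH blue, POA orange) and time (intact, 14 days and 4 months after OVX). Lines are group means, bars are 1 SD, and open diamonds are replicate 6 at 14 days, which had the highest Cd74 value of its region in both regions (914 in the PH and 1061 in the POA), whereas Ctss values lay lower in intact libraries (means 2540 and 2680) than in 4-month libraries (means 3450 and 3460).

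Ctss was the member whose groups lay farthest apart relative to their spread. In the PH, the intact libraries had Ctss values of 3148, 2415, 2364 and 2242. At 14 days the values ran from 2849 through a median of 2960 to 3545, and at 4 months from 3019 through 3335 to 3960. Intact replicate 1 lay among the OVX libraries, the other 3 intact libraries lay below all of them, and 5 of 6 libraries at 4 months were above the highest intact one. The group means were 2540 ± 410 (SD, n = 4), 3120 ± 328 (n = 6) and 3450 ± 374 (n = 6). The fitted log2 difference of Ctss from intact was 0.25 at 14 days (SE 0.0944, unadjusted P = 0.017, adjusted P = 1, limma). At 4 months it was 0.46 (SE 0.0917, unadjusted P = 7.81e-05, adjusted P = 0.114, limma), which is 1.38-fold with a 95% interval of 1.21 to 1.57. Ctss ranked 15th by P among the genes of that comparison. Between 4 months and 14 days the log2 difference was 0.21 (SE 0.087, unadjusted P = 0.0237, adjusted P = 1).

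In the POA, Ctss had values of 3107, 2603, 2818, 2278 and 2612 in the intact libraries. They ran from 2795 through a median of 3282 to 3652 at 14 days and from 3056 through 3486 to 3840 at 4 months. Again intact replicate 1 was the highest intact library, and 4 of 6 libraries at 14 days and 5 of 6 at 4 months lay above it. The means were 2680 ± 305 (SD, n = 5), 3220 ± 336 (n = 6) and 3460 ± 318 (n = 6). The log2 difference of Ctss from intact was 0.24 at 14 days (SE 0.0725, unadjusted P = 0.00382, adjusted P = 0.732, limma) and 0.34 at 4 months (SE 0.0726, unadjusted P = 0.000161, adjusted P = 0.0936), which is 1.26-fold with an interval of 1.14 to 1.4. Between 4 months and 14 days it was 0.10 (SE 0.0685, unadjusted P = 0.159), so those neighbouring groups did not differ beyond their spread.

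The order intact, 14 days, 4 months was thus the order of the Ctss means in both regions, although no member had every OVX library above every intact library. Of all PH genes tested, 0.277% met that condition at 14 days and 0.555% at 4 months. Of all POA genes, 0.262% and 0.412% met it. Within batches the sign held. In the PH, Ctss differed from intact by 0.168 and 0.44 (log2 of deposited values, batches 1 and 2) at 14 days and by 0.377 and 0.515 at 4 months. In the POA the values were 0.271 and 0.226 at 14 days and 0.323 and 0.382 at 4 months. The adjusted P of Ctss in the PH at 4 months was 0.0389 without intact replicate 1, 0.0165 without 4-month replicate 3, and up to 0.37 when another library was left out.

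The classical genes behaved differently, in that single libraries moved their group means. Cd74 in intact PH libraries was 359, 146, 306 and 225. At 14 days Cd74 ran from 173 through a median of 234 to 914, and at 4 months from 233 through 321 to 614. The groups overlapped throughout, the value of 914 belonged to 14-day replicate 6, and the value of 614 belonged to 4-month replicate 1. The next highest library at 14 days was at 365. The fitted log2 difference of Cd74 from intact was 0.40 at 14 days (SE 0.414, adjusted P = 1, limma; 1.32-fold, 95% interval 0.714 to 2.45) and 0.43 at 4 months (SE 0.403, adjusted P = 0.922; 1.34-fold, 0.738 to 2.45). Without replicate 6, the difference at 14 days was 0.0047, and without 4-month replicate 1 the difference at 4 months was 0.23. Within batches 1 and 2, Cd74 in the PH differed from intact by 0.222 and 0.329 at 14 days and by 0.651 and 0.272 at 4 months (log2).

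In the POA, Cd74 was 304, 168, 276, 440 and 278 in intact libraries, 183 to 1061 with a median of 282 at 14 days, and 221 to 325 with a median of 284 at 4 months. The value of 1061 again belonged to the library numbered 6, with the next at 389, and the 4-month libraries all lay inside the intact range. The log2 difference of Cd74 was 0.34 at 14 days (SE 0.308, adjusted P = 0.898, limma) and 0.09 at 4 months (SE 0.308, adjusted P = 0.962). Without replicate 6, the first was 0.0034. Within batches, the POA difference of Cd74 at 14 days was -0.0858 in batch 1 and 0.663 in batch 2, which holds replicate 6, and at 4 months it was 0.33 and -0.292, so its sign differed between batches at both times.

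H2-Aa, H2-Ab1 and H2-Eb1, the chains of the class II dimers, followed Cd74 library by library. H2-Aa in intact PH libraries was 189, 101, 165 and 132, and it ran from 73 through 147 to 379 at 14 days and from 120 through 187 to 398 at 4 months. In the POA, H2-Aa was 206, 95, 125, 273 and 122 in intact libraries, 108 to 518 (median 180) at 14 days and 132 to 180 (median 163) at 4 months. The groups overlapped, and the highest 14-day library was number 6 in both regions.

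H2-Ab1 was 145, 68, 123 and 103 in intact PH libraries, 79 to 239 (median 100) at 14 days and 98 to 214 (median 119) at 4 months. In the POA, H2-Ab1 was 110, 74, 126, 167 and 105 in intact libraries, 88 to 362 (median 120.0) at 14 days and 80 to 149 (median 120.0) at 4 months. Its POA difference at 14 days had the smallest unadjusted P among the 4 genes (log2 0.42, SE 0.232, unadjusted P = 0.0849, adjusted P = 0.825, limma), and it was 0.17 without replicate 6.

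H2-Eb1 was 184, 119, 148 and 138 in intact PH libraries, 64 to 319 (median 136) at 14 days and 134 to 374 (median 147) at 4 months. In the POA it was 161, 115, 129, 204 and 133, then 114 to 424 (median 163), then 109 to 177 (median 143). All these ranges overlapped. Over the 4 classical genes, log2 differences from intact lay between 0.11 and 0.40 in the PH at 14 days, 0.21 and 0.43 in the PH at 4 months, 0.34 and 0.42 in the POA at 14 days, and 0.03 and 0.18 in the POA at 4 months. Their medians were 0.253, 0.361, 0.371 and 0.116, against medians of -0.00177, -0.00932, -0.0059 and -0.0105 over all genes tested. The sign in the POA at 4 months depended on the model. With the replicate number as a block in place of SV1, those 4 differences lay between -0.23 and -0.07. Without 4-month replicate 1, the PH difference of H2-Eb1 at 4 months was -0.04. Without the library numbered 6, the 14-day differences of the 4 genes lay between -0.15 and 0.01 in the PH and between 0.0034 and 0.17 in the POA.

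**Figure D2:**
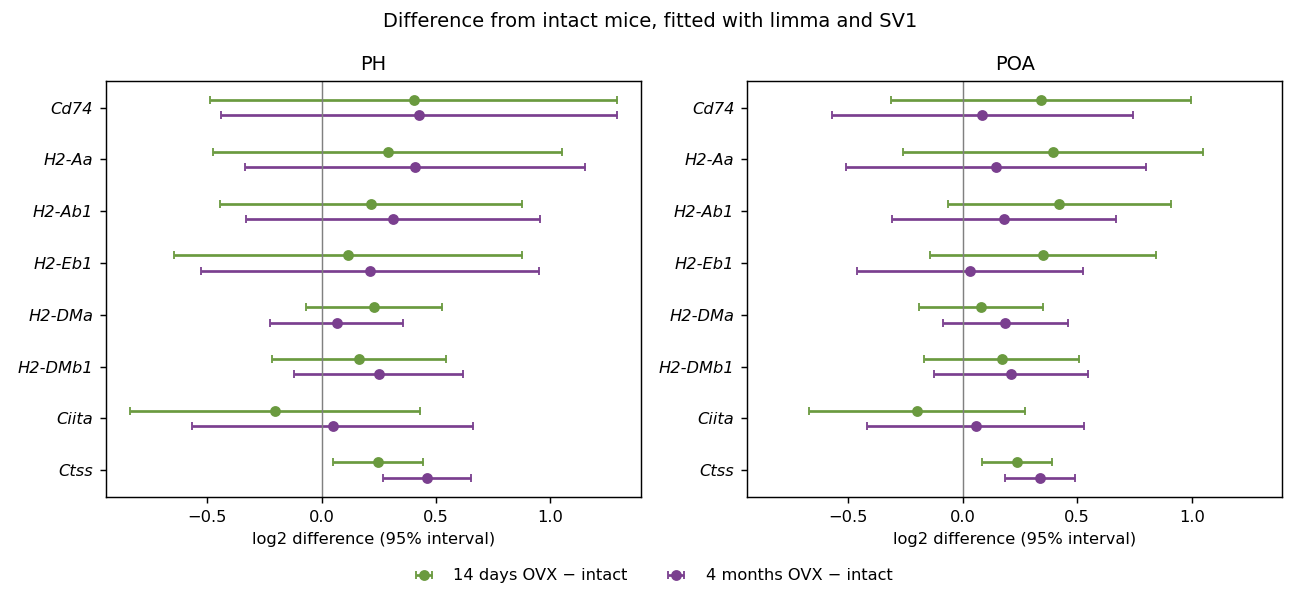
Fitted log2 difference from intact libraries (horizontal axis) of each MHC class II gene at 14 days (green) and 4 months (purple) after OVX in the PH and the POA, with 95% intervals from limma. The intervals of Ctss lie above 0 in all 4 comparisons (for example 0.27 to 0.654 in the PH at 4 months), and those of the other 7 genes include 0.

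The peptide-editing genes varied less between libraries. H2-DMa, the α chain of the H2-DM heterodimer, was 213, 256, 282 and 295 in intact PH libraries, 185 to 424 (median 279) at 14 days and 230 to 378 (median 280.0) at 4 months. In the POA it was 241, 246, 302, 342 and 294, then 249 to 379 (median 288), then 245 to 401 (median 299). The groups overlapped, and the library numbered 6 was again the highest at 14 days in both regions. The log2 differences of H2-DMa from intact lay between 0.07 and 0.23 (SE 0.13 to 0.142).

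H2-DMb1, the β chain of that heterodimer, was 104, 98, 75 and 121 in intact PH libraries, 41 to 139 (median 110.0) at 14 days and 110 to 132 (median 120.0) at 4 months. In the POA it was 105, 99, 72, 121 and 130, then 87 to 162 (median 109), then 93 to 135 (median 119). The 4-month PH libraries were close together (SD 8.38 around a mean of 122, n = 6) and overlapped the upper part of the intact range. The lowest value, 41, was PH 14-day replicate 5, and the highest 14-day values, 139 and 162, were the libraries numbered 6. The log2 differences of H2-DMb1 lay between 0.16 and 0.25 (SE 0.161 to 0.181), and the smallest unadjusted P was 0.17.

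Ciita, the transactivator, had its highest value of each region in a library other than the one with the highest Cd74. It was 70, 105, 92 and 75 in intact PH libraries, 40 to 176 (median 85) at 14 days and 58 to 104 (median 98) at 4 months. In the POA it was 139, 88, 69, 61 and 69, then 56 to 82 (median 72), then 61 to 127 (median 78). The highest Ciita value, 176, came from PH 14-day replicate 5, which had the lowest H2-Aa, H2-Eb1 and H2-DMb1 values of the PH (73, 64 and 41). The lowest, 40, lay under the level taken as 2 times the low signal. The log2 differences of Ciita from intact at 14 days and 4 months were -0.20 and 0.05 for the PH and -0.20 and 0.06 for the POA, with SEs of 0.226 to 0.3.

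The change from intact did not differ detectably between the regions for any member. In 1 fit over both regions, 0 of 8 genes had a region difference at an adjusted P of 0.05 at 14 days (limma; 0.00452% of the 22132 genes tested) or at 4 months (0.00904%). At an unadjusted P of 0.05 the counts were again 0 of 8 at both times (2.99% and 3.61% of all genes). For Ctss the PH change exceeded the POA change by 0.12 at 4 months, with a 95% interval of -0.12 to 0.364. For Cd74 the excess was 0.37 with an interval of -0.719 to 1.46, which includes differences larger than either change itself.

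Library by library, the 4 classical genes moved as a unit. Across the 16 PH libraries, the 6 Pearson correlations between their log2 values lay between 0.854 and 0.944, and across the 17 POA libraries between 0.882 and 0.967. After group and batch means were subtracted they were 0.897 to 0.967 and 0.833 to 0.964. Without the library numbered 6 at 14 days they were 0.807 to 0.944 and 0.734 to 0.914. These are descriptions over libraries that share processing and groups. H2-DMa and H2-DMb1 were more loosely tied to the 4 genes, with r of 0.464 to 0.61 and 0.339 to 0.602 in the PH and 0.344 to 0.47 and 0.494 to 0.602 in the POA. Ctss had r of 0.264 to 0.462 with them in the PH and of -0.341 to -0.251 in the POA. Ciita had r of -0.451 to -0.263 in the PH and of 0.116 to 0.194 in the POA.

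The library numbered 6 at 14 days showed the classical pattern in both regions. Its Cd74 value was 3.34 times the median of the other PH libraries and 3.83 times that of the other POA libraries. For H2-Aa, H2-Ab1 and H2-Eb1 the PH ratios were 2.3, 2.09 and 2.26, and the POA ratios were 3.25, 3.18 and 3.19. For H2-DMa and H2-DMb1 they were 1.53 and 1.2, and 1.28 and 1.43. For Ciita they were 1.09 and 1.18, and for Ctss 0.946 and 0.882. From the highest, this library ranked 1 or 2 of 16 in the PH for the 4 classical genes and both H2-DM genes. Its POA counterpart ranked 1 of 17 for the 4 classical genes and H2-DMb1 and 3 of 17 for H2-DMa. For Ciita it ranked 7 of 16 and 6 of 17, and for Ctss 10 of 16 and 14 of 17.

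**Figure D3:**
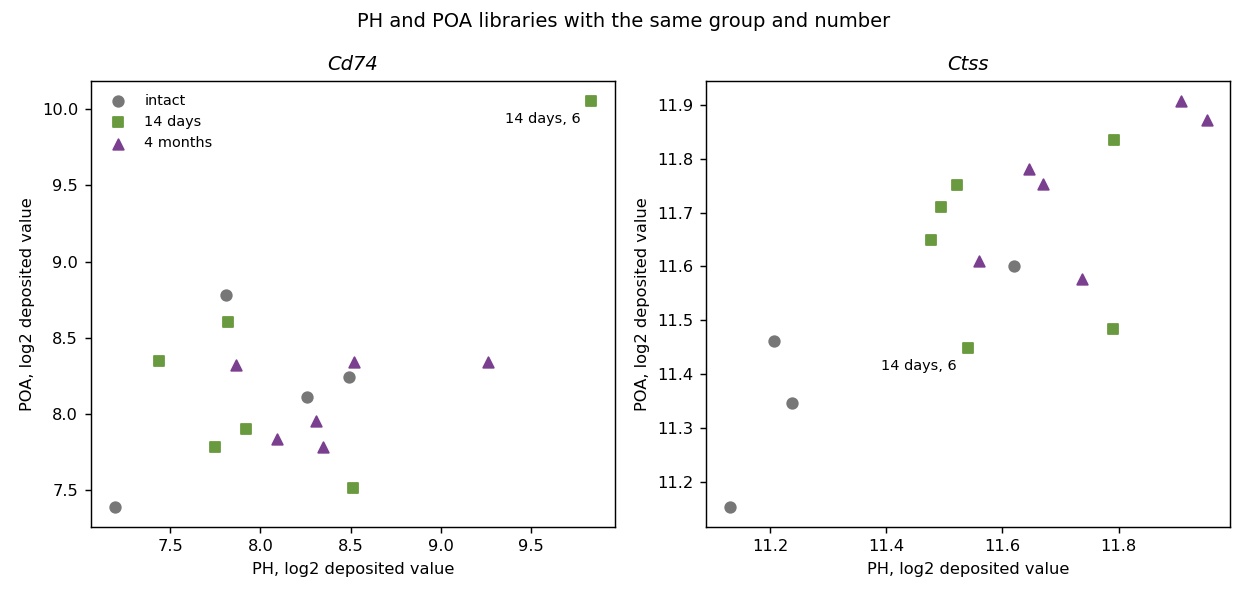
Log2 deposited value of Cd74 (left) and Ctss (right) in the PH (horizontal) and the POA (vertical) for the 16 pairs of libraries that share group and number. For Cd74 the library numbered 6 at 14 days stands at the upper right (914 and 1061) and the remaining points show no clear trend, and for Ctss the points rise together, with Pearson r = 0.778.

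Across the 16 pairs of PH and POA libraries that share group, number and batch, Cd74 had a Pearson r of 0.58 and a Spearman rho of 0.159. Without the pair numbered 6 at 14 days, r was 0.12, so the relation rested on that pair, and after group and batch means were subtracted it was 0.726 with the pair included. H2-Aa, H2-Ab1 and H2-Eb1 went from 0.37, 0.464 and 0.218 to -0.00801, 0.116 and -0.282. Ctss had r = 0.778 and rho = 0.688, and r was 0.789 without the pair numbered 6, 0.647 without the 2 pairs farthest from the PH median, and 0.502 after group and batch means were subtracted. H2-DMb1 had r = 0.376 and rho = 0.606. These pairs carry group differences common to both regions, and no P is given.

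Markers of cells that can carry these genes were set beside the members. The lists held 15 microglia, 10 border macrophage, 10 dendritic cell, 8 B cell, 8 T cell and 8 monocyte and neutrophil markers. In that order, the filter on low values left 15, 10, 8, 7, 7 and 6 tested in the PH. In the POA it left 15, 9, 8, 6, 7 and 4. None of those tested passed an adjusted P of 0.05 against intact mice (limma). The summed value of 15 microglia markers ran from 15926 to 17718 in intact PH libraries, from 16558 to 18588 at 14 days and from 17518 to 20154 at 4 months. In the POA it ran from 16164 to 17908, from 17490 to 18798 and from 17415 to 19867. Ctss and this sum had r = 0.695 (rho = 0.688, n = 16) in the PH and r = 0.839 (rho = 0.846, n = 17) in the POA. After group and batch means were subtracted, r was 0.331 and 0.806. At 4 months, 6 of 15 microglia markers in the PH, and in the POA 9 of 15, were higher than intact at an unadjusted P of 0.05, and 1 was lower in each, with none at an adjusted P of 0.05. In the PH the 4 with the smallest P were Itgam (log2 0.31), Tyrobp (0.39), Cx3cr1 (0.23) and Aif1 (0.50). In the POA they were Tyrobp (0.47, unadjusted P = 0.000291, adjusted P = 0.131, limma), P2ry13 (0.28), Itgam (0.22) and Gpr34 (0.27). At 14 days the smallest P were those of Itgam (0.27), Aif1 (0.42), Fcrls (-0.27) and Trem2 (0.26) in the PH, and of Gpr34 (0.26), P2ry12 (0.17), Tyrobp (0.27) and Fcrls (-0.29) in the POA. Itgam is a complement receptor subunit, Tyrobp the signaling adaptor of Trem2, Cx3cr1 the fractalkine receptor and Aif1 the protein IBA1. The part of microglial content in the Ctss difference was not tested.

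**Figure D4:**
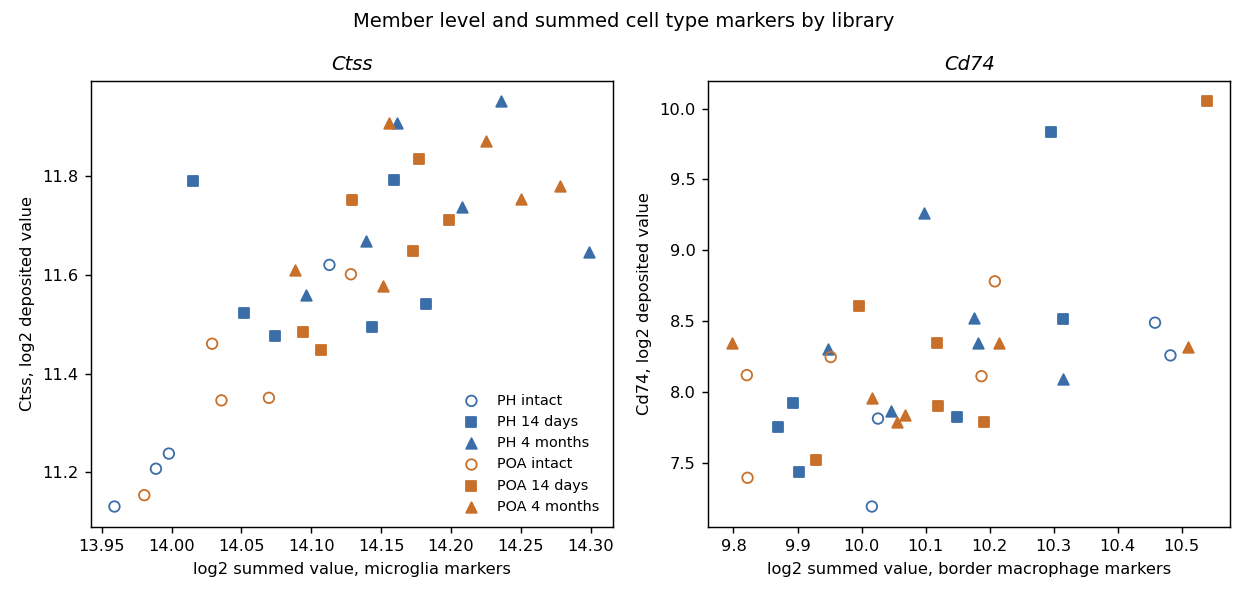
Log2 Ctss value against the log2 summed value of 15 microglia markers (left) and log2 Cd74 value against that of 10 border macrophage markers (right), with 1 point per library, coloured by region and shaped by time. In the left panel intact libraries (open) sit mostly at the lower left (POA r = 0.839), and in the right panel the highest Cd74 point is the POA library numbered 6 at 14 days, which also has the highest border macrophage sum of its region (1488).

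For the classical genes the tie to markers differed by region. Cd74 had r = 0.648 with the microglia sum in PH libraries and -0.118 in POA libraries, and r = 0.482 and 0.598 with the sum of 10 border macrophage markers. H2-Aa, H2-Ab1 and H2-Eb1 had r of 0.517 to 0.696 with the microglia sum in the PH and of -0.137 to -0.0529 in the POA. With the border macrophage sum they had r of 0.379 to 0.473 and of 0.537 to 0.625. In the POA library numbered 6, that sum was 1488, the highest of 17 (others 890 to 1458), and 4 of its 10 genes were at their POA maximum. Mrc1, the mannose receptor, was 247 there (others 102 to 221), Cd163, the hemoglobin scavenger receptor, 177 (93 to 148), F13a1 185 (74 to 159) and Folr2 61 (23 to 50). In the PH library numbered 6 the sum was 1257, rank 5 of 16, and 0 of 10 were at their maximum. Against intact mice, the border macrophage marker past an unadjusted P of 0.05 was F13a1 in the POA at 14 days (log2 0.41, adjusted P = 0.807, limma). On the dendritic cell list, the marker past that threshold in the PH was Siglech at 4 months (0.23). Bulk libraries do not give the cell source of Siglech, so its difference is not tied to dendritic cells. In the POA the markers past the threshold were Cd209a at 14 days (0.50) and 4 months (0.53) and Wdfy4 at 14 days (0.74). Among B cell markers they were Ighm in the PH (0.62) and Cd22 in the POA (0.51) at 4 months. At 14 days, T cell markers gave Cd3g (-0.65) in the PH and Cd4 (-0.52) and Cd5 (0.53) in the POA. At 4 months they gave Cd4 (-0.50) in the PH. Cd209a, Cd3g and Cd5 had medians under 44.2, so their differences are between values close to the low-signal level. The monocyte and neutrophil list gave Fn1 in the PH at 4 months (0.42). Between 4 months and 14 days, Cd3g differed by 0.65 in the PH and Ms4a7, a border macrophage marker, by -0.27 in the POA. The sum of 8 monocyte and neutrophil markers was 3132 in the POA library, the highest of 17 (others 1384 to 2569), and 2161 in the PH library, rank 7 of 16. Of these 8 genes, 2 were at their POA maximum and 0 at their PH maximum. They were Fn1, fibronectin, at 2800 (others 1054 to 2262) and Ccr2, the chemokine receptor of monocytes, at 94 (50 to 85). Fn1 alone thus gave 2800 of the 3132 in the POA. Of the rest, Ly6g ranked 2 of 17, Ly6c2 5, Plac8 6, S100a9 7, S100a8 8 and Chil3 17. Plac8, Chil3, S100a8, S100a9 and Ly6g had medians under 44.2, which is 2 times the low-signal level. The microglia sum of the 2 libraries was unremarkable, rank 4 of 16 and 11 of 17, but it joined genes that differed in rank. Of its 15 genes, 1 was at its maximum in each library, and this was Csf1r both times. The PH library had a Csf1r value of 3580 (others 2051 to 3494), and the POA library had 3584 (others 2231 to 3432). P2ry12 was at its POA minimum there, 1223 (others 1243 to 2011), while the PH library ranked 10 of 16 for it.

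Choroid plexus markers, which show how much of that tissue came with the dissection, were also high in both libraries numbered 6. Their sum was 33751 in the PH (rank 5 of 16, others 2702 to 81346) and 53594 in the POA (rank 3 of 17, others 3532 to 88503). The PH library with the highest choroid plexus sum was 4-month replicate 1, whose Cd74 value of 614 was second in the PH. The POA library with the highest sum was intact replicate 1, whose Cd74 value was 304. PH 4-month replicate 1 also had the highest sum of 8 B cell markers, 2137 against 694 to 1244 in the other PH libraries, with Ighm, the heavy chain of IgM, at 1623. In the libraries numbered 6 at 14 days, the neuron sum was the lowest of its region, 186346 (PH) and 159487 (POA). The part of any of these contents in the class II values was not tested.

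The genes most like the classical 4 were Rcn3, H2-Q6, H2-Q7, Lyz2, Podn and Slc36a2, by the lower of the PH and POA Pearson correlations with their mean log2 value among 21161 genes. The 2 values were 0.764 and 0.85 for Rcn3, 0.784 and 0.761 for H2-Q6, 0.751 and 0.75 for H2-Q7, 0.79 and 0.735 for Lyz2, 0.707 and 0.71 for Podn and 0.702 and 0.699 for Slc36a2, over 16 and 17 libraries. H2-Q6 and H2-Q7 are near-identical class I genes that can share reads, and Lyz2 encodes the lysozyme of macrophages. The median of this measure over all genes was -0.18 and its 99th percentile was 0.472. By Spearman correlation 2 of these 6 genes were among the first 6, and 2 were after group and batch means were subtracted.

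Other genes of the pathway were counted by list. H2-Ea was not analysed here. Of 4 further class II genes tested (H2-Eb2, H2-DMb2, H2-Oa and H2-Ob, of which the H2-O pair restrains H2-DM), 0 were past an unadjusted P of 0.05 in any comparison with intact mice. H2-Ob had a log2 difference of 0.32 in the PH at 4 months (SE 0.174, unadjusted P = 0.0825, adjusted P = 0.856, limma). At an unadjusted P of 0.05, 0 of 11 transcription factors of class II genes were higher in the PH at 14 days. At 4 months 1 was higher there, and in the POA 1 was lower at 14 days and 2 were higher at 4 months. Of all genes tested, 648 of 21984 were higher in the PH at 4 months and 876 of 21357 in the POA. In the POA at 14 days, 705 of 21357 were lower. Irf1, an interferon-induced factor that drives Ciita, differed by 0.64 in the PH (SE 0.201, unadjusted P = 0.00516, adjusted P = 0.591) and by 0.43 in the POA (SE 0.137, adjusted P = 0.351) at 4 months. Irf8, a factor of macrophages and microglia, differed by 0.33 in the POA, and Nfyb, a subunit of NF-Y, by -0.14 in the POA at 14 days. Irf1 and Nfya differed by 0.29 and -0.18 between 4 months and 14 days in the POA.

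Of 10 endosomal proteases, regulators and turnover genes, Ctsz, another lysosomal cathepsin, was past an unadjusted P of 0.05 in the PH at 14 days (log2 0.22) and at 4 months (0.31) and in the POA at 4 months (0.19), and no other gene of that list was. Of 5 costimulatory genes, Icosl, the ligand of ICOS on T cells, differed by 0.33 in the PH at 14 days, and at 4 months by 0.40 in the PH (SE 0.103, unadjusted P = 0.00106, adjusted P = 0.354, limma) and 0.39 in the POA (SE 0.115, adjusted P = 0.304). Cd274, the checkpoint ligand PD-L1, differed by 0.67 and 0.51 at 4 months. None of these lists had a gene at an adjusted P of 0.05. All 5 red cell genes were higher at an unadjusted P of 0.05 at 4 months in both regions, of which Alas2, the first enzyme of heme synthesis in red cells, passed adjustment in the PH (adjusted P = 0.0301, limma), and their sum ran from 6507 to 8426 in intact PH libraries against 12093 to 37251 at 4 months. In the POA the sums overlapped, at 7050 to 16431 in intact libraries and 9569 to 22657 at 4 months. Of 8 endothelial markers, 5 in the PH and 3 in the POA were higher by the same measure and 1 in the POA was lower. The part of blood and vessel content in the member values was not tested.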

How the data were processed

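RNA from flash-frozen PH and POA tissue with RNA integrity numbers above the study's minimum was made into stranded mRNA libraries. Per the submitters' processing notes and the study's methods, reads were pseudoaligned with kallisto to the mm39 transcriptome and analysed with DESeq2. The authors deposited 1 table of decimal values per gene and library, treated here as a linear normalized signal. The step that made these deposited signal values is not given in the sources used here, nor is the read depth, so precision was taken from the spread between libraries. Of 42824 rows, 1259 without a gene name were left out. A log2 value of 4.46 (22.08 linear) was the most common low value.

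Values were log2-transformed without a pseudocount. Genes were kept with values of at least 44.17 in at least 4 PH or 5 POA libraries. Differences were tested with limma 3.58.1 in R 4.3.3 (trended, robust variances), with the 3 groups of a region and a surrogate variable, SV1, estimated by an own iteratively reweighted singular value decomposition (5 rounds) after the study's method. P values were two-sided. In a simulated PH comparison of 4 months with intact libraries over 21984 genes, 58 of 100 genes changed 1.5-fold and 95 of 100 changed 2-fold were called. In the same simulation of the POA over 21357 genes, 77 and 98 of 100 were called. The simulated noise was set below the observed spread of each gene, and SV1 recovered the 1 hidden factor that was added. The changed genes were drawn at random, whereas the members differ in spread (PH pooled SD on the log2 scale 0.674 for Cd74 and 0.169 for Ctss). These rates therefore do not give the chance of calling a change in a given member. Alternatives were batch as covariate or none, both, a replicate block, no filter, a pseudocount of 100, median scaling, pairs of groups and each library left out. Group summaries, correlations and promoter searches used Python 3.11.15 with pandas 2.3.3 and scipy 1.17.1.

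All 8 members are named. Genes of the pathway and immune cell lists are named at an unadjusted P of 0.05, up to 4 a list and comparison by smallest P, other lists are given by counts, and the 6 most similar genes by correlation. The members and lists were chosen with earlier results of these data known. H2-Ob, Alas2 and the markers given for single libraries (Mrc1, Cd163, Folr2, Ccr2, Ighm) were chosen after their values were seen. So were Csf1r, P2ry12 and the other monocyte and neutrophil markers ranked for single libraries. The values of 1 listed marker are not reported here.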

Additional observations from a re-analysis of the deposited data

Results flagged for a closer look

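In 48 sets of values (8 genes in 6 groups), 8 had a highest or lowest library farther from the next than Dixon's limit allows for the size of the group, where chance gives about 1 in 20. All 8 were at the high end. The flags lay in 3 libraries, and on the log2 scale 1 of the 8 remained (H2-Eb1 in the PH at 4 months), while the lowest H2-DMb1 value of the PH at 14 days (41, replicate 5) passed the limit on that scale alone. In the PH, Cd74 at 14 days was flagged for 914 in replicate 6. At 4 months, replicate 1 was flagged for Cd74 (614), H2-Aa (398) and H2-Eb1 (374). In the POA, replicate 6 at 14 days was flagged for Cd74 (1061), H2-Aa (518), H2-Ab1 (362) and H2-Eb1 (424). The 4 genes vary together, so these are not separate events. No gene was flagged for a difference between regions.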

How the results depend on the processing

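Across the alternatives run, no member was called at an adjusted P of 0.05 (limma) in any comparison, with 1 exception. Leaving out single libraries gave 0 to 1 members called in the PH at 4 months against intact, where Ctss was called without PH intact replicate 1 (adjusted P = 0.0389) and without PH 4-month replicate 3 (0.0165). Over the settings that left out no single library, the adjusted P of Ctss at 4 months against intact ran from 0.0732 to 0.708 in the PH and from 0.0849 to 0.421 in the POA. With any other single library left out it ran from 0.0699 to 0.37 in the PH, and with each POA library left out from 0.0554 to 0.263 in the POA. The median member difference stayed within 1 pooled SD of its main value in all 165 recomputations (SD 0.491 in the PH and 0.482 in the POA, log2). Those SDs exceed the main medians, so the sign could still turn. In POA batch 1 alone, every member was higher at 4 months than at 14 days (log2 0.0512 to 0.416), against a main median of -0.1. Over all genes, the number called in the POA at 4 months was 20, between 1 and 21 under settings that kept every library, and between 4 (without POA intact replicate 1 or POA 4-month replicate 6) and 37 (without POA 14-day replicate 6) with single libraries left out. In the PH at 4 months it was 7, and 5 to 14 with single libraries left out. Leaving out both 14-day libraries numbered 6 from the fit over both regions, an alternative chosen after seeing the data, left 0 members with a region difference at either time.

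Signs turned in 69 of the 1320 recomputed differences, all of genes that passed no threshold, and the cause was not tested. The 1320 include differences within batches, which were compared with the main fit by size and not by sign. Turns within batches are therefore not among the 69. For example, Cd74 between 4 months and 14 days in the POA was 0.416 in batch 1, against -0.256 in the main fit. Log2 differences from intact in the PH at 14 days were -0.01886 for H2-Eb1 and -0.0256 for H2-DMb1 both with batch in place of SV1 and with no covariate. Under the same settings, H2-DMa between 4 months and 14 days in the PH was 0.01294. H2-Eb1 in the POA at 4 months was -0.01909 with batch and -0.05916 with no covariate, where Cd74 was -0.03279. With a pseudocount of 100, Cd74 between 4 months and 14 days in the PH was -0.006218. With only the groups compared it was -0.02746, Ciita in the PH at 4 months -0.0159 and H2-Eb1 in the POA at 4 months -0.04722.

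With the replicate number as a block in place of SV1, Ciita at 4 months was -0.2041 in the PH and -0.04028 in the POA, H2-DMa was 0.01294 in the PH between 4 months and 14 days and -0.02623 at 14 days against intact in the POA, and Cd74, H2-Aa, H2-Ab1 and H2-Eb1 in the POA at 4 months were -0.2258, -0.09899, -0.07357 and -0.2215. With the block and SV1, Ciita at 4 months was -0.1405 in the PH and -0.1039 in the POA. Between 4 months and 14 days in the PH, H2-Ab1 was -0.003156 and H2-Eb1 -0.008215. In the POA, H2-DMa and H2-DMb1 at 14 days were -0.03065 and -0.001352, and Cd74, H2-Aa and H2-Eb1 at 4 months were -0.1447, -0.1382 and -0.1909. Neither block changed a call. Deviations of same-numbered libraries of a region correlated above 0.1 in 9 of 14 PH pairs and 14 of 16 POA pairs. Of the 7 other pairs, the 2 in the POA and 2 of the 5 in the PH joined libraries of different batches. Since the condition for pairing was an r above 0.1 in every pair, the numbers were not taken to pair libraries.

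With single libraries left out, PH differences from intact at 14 days ran from -0.0484 to 0.4459 for H2-Ab1, -0.1472 to 0.3492 for H2-Eb1 and -0.001489 to 0.3232 for H2-DMb1, and at 4 months from -0.0393 to 0.4017 for H2-Eb1 and -0.1034 to 0.1726 for Ciita. Between 4 months and 14 days in the PH they ran from -0.2009 to 0.4458 for Cd74, -0.15 to 0.4163 for H2-Aa, -0.0753 to 0.3783 for H2-Ab1 and -0.1818 to 0.377 for H2-Eb1. In the POA, Ciita ran from -0.3102 to 0.05295 at 14 days and -0.08187 to 0.3119 at 4 months, Cd74 from -0.03939 to 0.2322 and H2-Eb1 from -0.05534 to 0.1592 at 4 months. Between 4 months and 14 days in the POA, the ranges were -0.3955 to 0.0342 for Cd74, -0.3781 to 0.01268 for H2-Aa and -0.02928 to 0.1359 for H2-DMb1. The read depth is unknown, so the precision of low values such as those of Ciita could not be given.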
